A study of Mus musculus with 12 samples.

Results

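The loci described here were those of 9 skeletal muscle lineage genes, *Myod1*, *Myf5*, *Myog*, *Myf6*, *Pax7*, *Pax3*, *Des*, *Ckm* and *Acta1*, out of 21911 protein-coding genes. They were read from ATAC-seq peak lists of fibroblasts cultured from muscle. The members were chosen by name for their place in the muscle lineage. A peak belonged to a locus when its summit, the base of highest signal, lay in the gene body or in the 50000 bp upstream of it (GENCODE M21, mm10). A promoter was called in a library when a summit lay within 3000 bp of any annotated transcript start of the gene. The windows spanned 51.9 kb (*Myf6*) to 146.5 kb (*Pax7*). Those of the neighbouring genes *Myf5* and *Myf6* overlapped, so the 9 windows merged into 8 that cover 638.7 kb.

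The cells were primary fibroblasts from the lower abdominal muscle (LAM) of Aromhum mice, a humanized line in which transgenic aromatase forms estrogen within muscle. Every library therefore carried the transgene, and no wild-type library was analysed here. Each treatment had 3 libraries: vehicle (ethanol and DMSO), estradiol (E2, 10 nM), E2 (10 nM) plus the estrogen receptor antagonist fulvestrant (100 nM), and fulvestrant alone (100 nM), with a labelled time of 1 hr. Per the methods, cells starved overnight in serum-free medium were given fulvestrant or DMSO 3 hr ahead of E2 or ethanol. The labelled 1 hr runs from the addition of E2 or ethanol to harvest. The methods name male mice and a preplating step that kept the cells attaching early and was meant to leave myogenic cells behind. The paper also reports that all fibroblasts isolated in this way were positive for the proteins ESR1 and PDGFRA. An age for the mice of these cultures was not found in the sources used here. The labels do not say whether the 3 libraries of a treatment came from separate animals or cultures, so p-values measure the spread between these libraries, which may be technical.

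The genes mark successive stages of muscle formation. *Pax3* and *Pax7* encode paired-box factors of muscle progenitors, and *Pax7* marks satellite cells, the stem cells of adult muscle. *Myod1*, *Myf5*, *Myog* and *Myf6* encode the myogenic regulatory factors, basic helix-loop-helix proteins that bind the E-box CANNTG, with *Myod1* and *Myf5* in commitment and *Myog* and *Myf6* in differentiation. *Des*, *Ckm* and *Acta1* encode desmin, muscle creatine kinase and skeletal alpha-actin, products of differentiating and mature fibres. Desmin is also made by some smooth muscle and stromal cells. Fibroblasts of muscle belong to a separate mesenchymal lineage.

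The libraries differed in how sharply they marked promoters. The lists held 30062 to 110724 peaks. The share of all protein-coding promoters called with q of 0.05 or less ran from 1.24% (E2 plus fulvestrant replicate 2) to 50.5% (fulvestrant replicate 1). In 5 libraries (vehicle replicates 1 and 3, and replicate 1 of each other treatment) this share was 32.2% to 50.5%, and in the other 7 it was 1.24% to 13.5%. The 4 libraries numbered 1 also held 22 to 36 peaks on chromosome Y, against 854 to 1148 in the other 8, although the methods name male mice. The promoter calls and the gene lists are given with these 5 libraries alone as well. Within the 5, promoters of a 12-gene fibroblast list were called with q of 0.05 or less in 41 of 60 gene-library pairs (68.3%), against 44.5% over all genes. Those of endothelial and leukocyte markers were called in 1 of 20 pairs each (5%). The shares were 13.3% for pericyte and smooth muscle, 20% for adipocyte and 26.7% for Schwann markers. A larger share of fibroblast promoters than of promoters of these other cell types was therefore called. Muscle lists beyond the members ran from 10% (satellite cell surface and fusion) to 50% (other myogenic regulators, 25 of 50 pairs).

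The upstream sequences of 4 members are shown first, because the question is whether these promoters were open. The promoter table of RefSeq (GRCm38.p6) held 6 of the 9 members, and *Myod1*, *Myf6* and *Pax3* had no entry there. Each sequence runs 5′ to 3′ on the strand of the gene, starts 250 bases before the RefSeq start and stops where an exon is annotated in GENCODE. Capitals mark the E-box CANNTG, the site of the myogenic regulatory factors.
*Myog* (chr1:134289754-134289988, plus strand): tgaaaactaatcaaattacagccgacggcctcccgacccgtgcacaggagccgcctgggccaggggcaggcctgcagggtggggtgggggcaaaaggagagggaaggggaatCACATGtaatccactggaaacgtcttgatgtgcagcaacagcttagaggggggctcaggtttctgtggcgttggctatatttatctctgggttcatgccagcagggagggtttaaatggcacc
*Des* (chr1:75360042-75360291, plus strand): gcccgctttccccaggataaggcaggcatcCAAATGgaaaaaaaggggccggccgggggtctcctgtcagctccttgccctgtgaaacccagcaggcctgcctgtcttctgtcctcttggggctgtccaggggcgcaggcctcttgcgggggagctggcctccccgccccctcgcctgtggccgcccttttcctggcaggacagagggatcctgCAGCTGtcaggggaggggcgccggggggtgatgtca
*Ckm* (chr7:19410844-19411024, plus strand): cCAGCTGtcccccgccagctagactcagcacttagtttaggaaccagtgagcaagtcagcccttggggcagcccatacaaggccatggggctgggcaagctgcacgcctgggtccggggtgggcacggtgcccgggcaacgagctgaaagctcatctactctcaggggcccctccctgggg
*Acta1* (chr8:123894776-123895025, minus strand): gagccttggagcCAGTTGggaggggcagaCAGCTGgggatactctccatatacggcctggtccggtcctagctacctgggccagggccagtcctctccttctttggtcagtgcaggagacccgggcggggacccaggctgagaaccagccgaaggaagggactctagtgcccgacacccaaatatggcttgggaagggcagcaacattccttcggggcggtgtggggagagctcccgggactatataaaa
In the 250 bases before the RefSeq start, *Myog*, *Des* and *Acta1* held 2 E-boxes each, *Ckm* held 1, and *Myf5* and *Pax7* held 0. One of the *Myog* pair begins 12 bases before the start, beyond the part shown. Over 32851 promoters of the table, 66.2% held at least 1 E-box on either strand. The narrower form CAGCTG, a subset of these matches, was found in *Des*, *Ckm* and *Acta1* and in 13% of all promoters. The *Acta1* promoter also held TATAAA 7 bases before the start (12.4% of all promoters) and a CArG box, the serum response factor element (1.47%). Each match is a run of letters in the reference and not evidence of a bound factor.

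Promoter calls at the members as a whole were fewer and weaker than over all genes. Of 108 gene-library pairs 27 were called (25%), against 39.6% over all protein-coding genes, and 4 pairs had q of 0.05 or less (3.7%, against 21.2%). At the stricter limit of −log10 q of at least 5 there were 0 member calls, against 11.8% of all pairs. In the 5 libraries with sharp promoter signal, 15 of 45 pairs were called (33.3%, against 59.4%) and 3 had q of 0.05 or less (6.67%, against 44.5%). By gene, 7 of 9 members were called in at least 1 of 12 libraries, where 88.2% of all genes were, and 2 of 9 (*Myog* and *Ckm*) at q of 0.05 or less, where 64.9% were. In at least 6 libraries, 3 members (*Des*, *Ckm* and *Acta1*) were called, against 45.2% of all genes. The median member was called in 1 library and the median gene in 5.

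**Figure D1:**
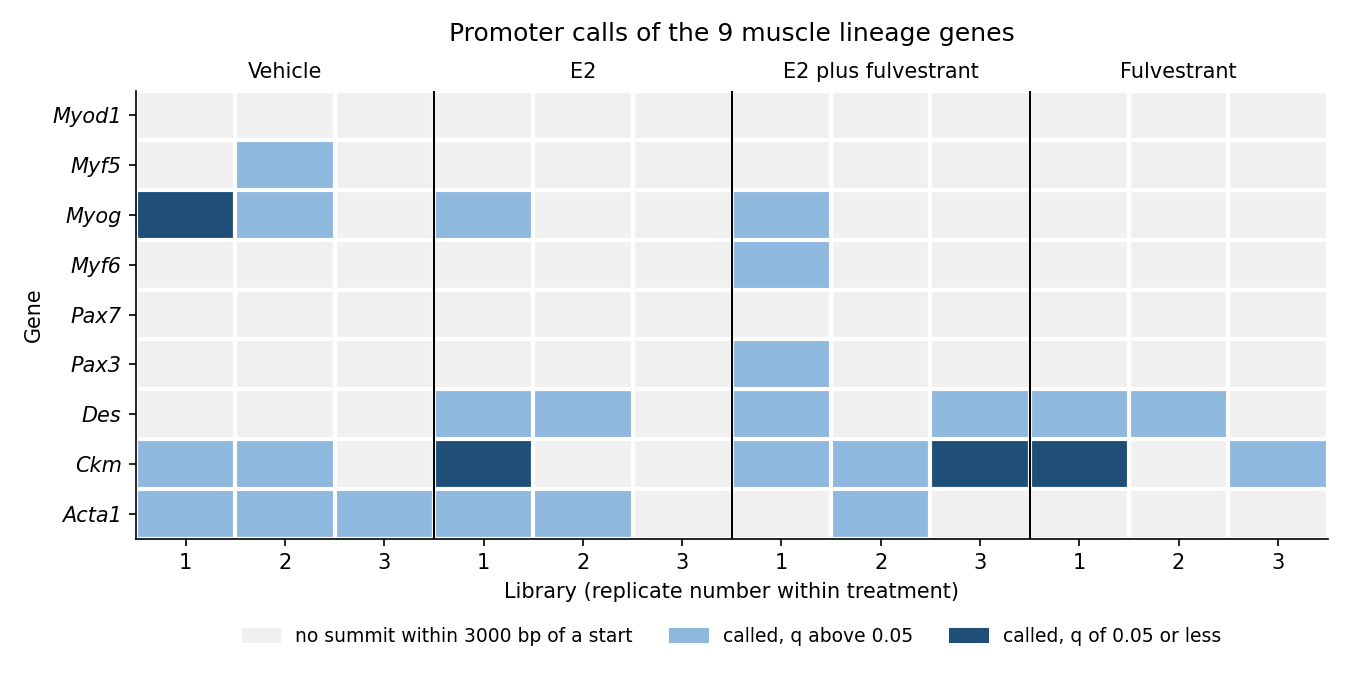
Promoter calls of the 9 genes (rows) in the 12 libraries (columns, replicate numbers within the 4 treatments); pale cells have no summit within 3000 bp of a start, light blue cells are called with q above 0.05 and dark blue cells with q of 0.05 or less. Of 108 cells 27 are called and 4 are dark, and the *Myod1* and *Pax7* rows are empty.

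The promoters of the progenitor factors were nearly always uncalled. *Pax7*, the satellite cell factor, had a promoter call in 0 of 12 libraries, as did 11.8% of all genes. Its promoter is CpG-rich (observed over expected CpG of 0.64 and 59.8% GC within 500 bp of the start), and among 9723 such promoters 1.75% were called in none of the libraries while 68.7% were called in at least 6. *Pax3*, whose promoter is also CpG-rich, was called in E2 plus fulvestrant replicate 1, by a peak of 6 tags with its summit 24 bp upstream of the start, a fold enrichment of 3.32 over the local background and −log10 q of 1.12. A q of 0.05 corresponds to 1.3 on this scale, so that call missed the limit.

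The 4 myogenic regulatory factors gave 6 promoter calls among 48 gene-library pairs (12.5%, against 39.6% over all genes). *Myod1*, the factor that can turn fibroblasts into myoblasts when forced on, had 0 calls in 12 libraries. *Myf5* was called in vehicle replicate 2, the library with the longest list, by peaks of 5 and 4 tags (−log10 q of 0.70 and 0.28). The *Myf6* call, in E2 plus fulvestrant replicate 1, rested on 6 tags 991 bp into the gene. *Myog* was called in vehicle replicates 1 and 2, E2 replicate 1 and E2 plus fulvestrant replicate 1. Its 4 summits stood at −1892, −1649, −274 and +1739 bp from the start, so no library repeated the position of another, and 1 of them (vehicle replicate 1, 6 tags, fold enrichment 3.93, −log10 q of 1.60) had q under 0.05.

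The 3 structural and metabolic genes held 20 of the 27 calls, in 36 pairs (55.6%, above the 39.6% of all genes). At q of 0.05 or less 3 of these pairs were called (8.33%, against 21.2%). *Acta1* was called in all 3 vehicle libraries, E2 replicates 1 and 2 and E2 plus fulvestrant replicate 2. Its summits ran from −1742 to +2530 bp, fold enrichments from 2.34 to 3.81, and the highest −log10 q was 1.28. A start of the antisense gene *Gm29773* lies 1522 bp from that of *Acta1*. The *Acta1* promoter peaks of vehicle replicates 1 and 3 and E2 replicate 2 lay within 3000 bp of both. The vehicle replicate 1 summit lay at −100 bp, inside the *Acta1* sequence above, on 5 tags with −log10 q of 0.66. *Des* was called in E2 replicates 1 and 2, E2 plus fulvestrant replicates 1 and 3 and fulvestrant replicates 1 and 2, with −log10 q of at most 0.95. Of the 6 *Des* summits 4 stood at 3033 to 4659 bp inside the gene and counted through starts of short internal transcripts. Around the RefSeq start *Des* was called in 2 libraries.

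*Ckm* was called most often, in 8 of 12 libraries, with 3 calls at q of 0.05 or less. The annotation is part of that count. The GENCODE record of *Ckm* begins 6318 bp upstream of the RefSeq start, at chr7:19404776, next to the gene *Klc3*, a kinesin light chain. All 3 stronger *Ckm* calls lay within 3000 bp of a *Klc3* start as well: E2 replicate 1 (10 tags, −log10 q of 3.48) and fulvestrant replicate 1 (9 tags, 3.10) at 789 and 762 bp from the early *Ckm* start, and E2 plus fulvestrant replicate 3 (9 tags, 1.72) upstream of it. Around the RefSeq start *Ckm* was called in 2 libraries, vehicle replicate 1 and E2 plus fulvestrant replicate 1, both with q above 0.05. With RefSeq starts for the 6 members of its table, 15 of 72 pairs were called (20.8%, against 33.3% of pairs over 16522 genes in the table) and 1 at q of 0.05 or less (1.39%, against 20.1%).

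By treatment, vehicle libraries held 3, 4 and 1 member promoter calls (replicates 1, 2 and 3), E2 libraries 4, 2 and 0, E2 plus fulvestrant libraries 5, 2 and 2, and fulvestrant libraries 2, 1 and 1. These ranges overlapped for every pair of treatments. *Acta1* had calls in 3 of 3 vehicle and 0 of 3 fulvestrant libraries, a split found at 0.58% of all genes and chosen here after its values were seen. *Des* had calls in 0 of 3 libraries with vehicle and 2 of 3 with each other treatment. The share of all genes with that pattern was not computed, and most of these calls counted through internal starts. Around its RefSeq start *Des* was called in E2 replicate 1 and E2 plus fulvestrant replicate 3 alone. With 3 libraries against 3, the smallest two-sided exact p is 0.1, so these counts can neither show nor deny a difference between treatments.

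Beyond the promoters, peaks in the whole windows were counted per library. Summed over the 8 windows, vehicle libraries held 19, 30 and 11 peaks (20 ± 9.5, mean ± SD, n = 3), E2 libraries 34, 17 and 11 (20.7 ± 11.9), E2 plus fulvestrant libraries 24, 10 and 12 (15.3 ± 7.6) and fulvestrant libraries 25, 8 and 13 (15.3 ± 8.7). The 4 ranges overlapped, and each difference of means was smaller than the SDs. Per Mb, the windows held 1.05 (vehicle replicate 1) to 1.86 (fulvestrant replicate 3) times as many peaks as the genome did in the same library. The genome includes stretches far from genes, so this ratio does not set the members against other genes. Among gene windows, the median member held 2.69 peaks per 100 kb (mean of 12 libraries). The median of all protein-coding genes was 3.08. At q of 0.05 or less the sums were 3, 1 and 4 with vehicle, 15, 0 and 1 with E2, 8, 1 and 2 with E2 plus fulvestrant, and 12, 1 and 1 with fulvestrant.

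**Figure D2:**
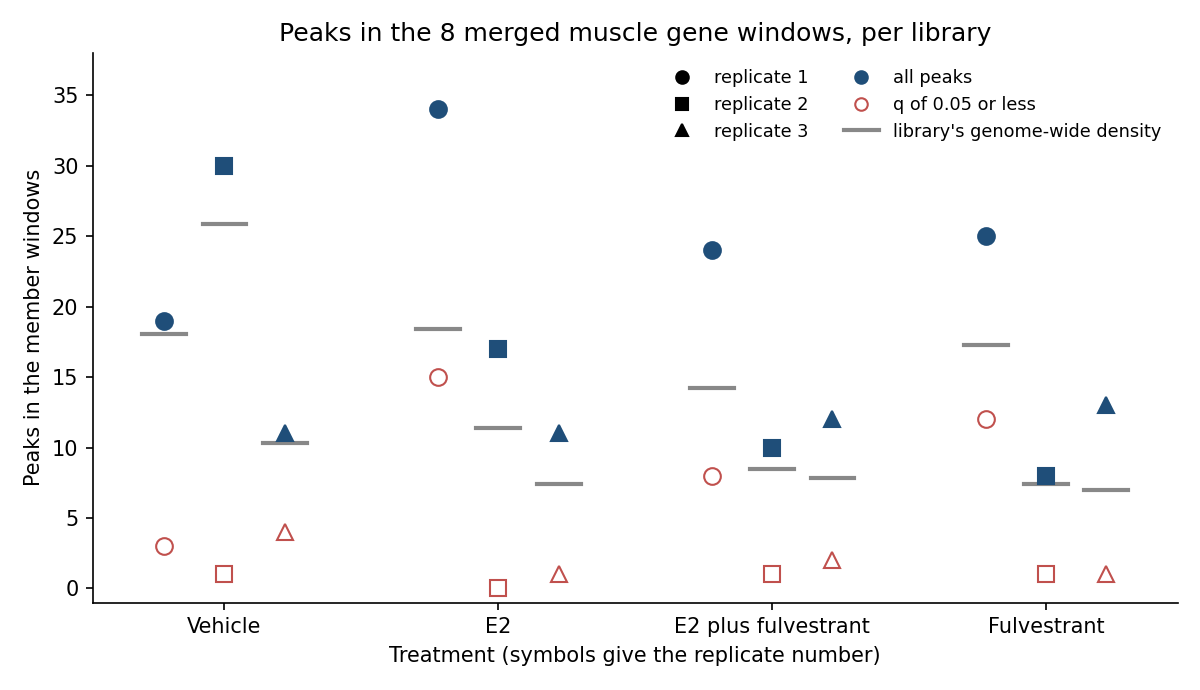
Peaks in the 8 merged member windows (y axis, number of peaks) for each library, by treatment (x axis) and replicate number (symbol); filled symbols count all peaks, open symbols those with q of 0.05 or less, and grey bars the number given by the library's own genome-wide peak density. Filled symbols span 8 to 34 and overlap between all 4 treatments, and the highest open symbols (15, 12 and 8) are libraries numbered 1. The grey bars rest on the whole genome and not on the windows of other genes.

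*Pax7* had the most window peaks (47 over the 12 libraries), with 5, 6 and 3 in vehicle, 6, 7 and 2 in E2, 4, 4 and 1 in E2 plus fulvestrant and 3, 4 and 2 in fulvestrant libraries. Its window is the longest, and per 100 kb its mean of 2.67 peaks per library lay at percentile 41.9 of all genes, whose median was 3.08. *Myog* had the highest member density, 5.07 per 100 kb (percentile 86.0), with 5, 5 and 0 peaks in vehicle, 8, 3 and 0 in E2, 2, 0 and 3 in E2 plus fulvestrant and 3, 0 and 3 in fulvestrant libraries. *Ckm* followed at 4.90 (percentile 83.7), with 3, 2 and 4 in vehicle, 7, 2 and 2 in E2, 8, 1 and 1 in E2 plus fulvestrant and 8, 0 and 2 in fulvestrant libraries. For both genes the libraries of each treatment overlapped with those of every other.

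*Des* held 1, 2 and 1 peaks in vehicle, 4, 2 and 2 in E2, 3, 1 and 3 in E2 plus fulvestrant and 5, 2 and 2 in fulvestrant libraries. *Acta1* held 1, 5 and 1, then 5, 2 and 0, 0, 3 and 2, and 2, 1 and 0 in the same order of treatments. *Myod1* held 3, 4 and 1, then 1, 0 and 2, 0, 1 and 1, and 2, 1 and 1, a total of 17. The lowest densities were those of *Pax3* (1.09 per 100 kb), *Myf6* (1.12) and *Myf5* (1.41), at percentiles 12.9, 13.4 and 18.2 of all genes. *Myf5* and *Myf6* had 0 peaks at q of 0.05 or less in the 12 libraries, and the 9 peaks of the *Myf5* window included all 7 of the *Myf6* window.

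Each contrast of treatments was tested per locus by an exact two-sided permutation of the libraries with Benjamini-Hochberg adjustment over all 21911 loci. In E2 against E2 plus fulvestrant, which asks what the antagonist changes in the presence of E2, 8 of 9 members had the higher mean with E2, as did 51.6% of all loci, and the lowest member p was 0.4 (exact permutation). Per 10000 peaks of the list, 6 members were higher, as were 42.9% of all loci. The log2 ratio of the member sums fell from 0.43 to 0.13. No member had all 3 libraries of either treatment above the other, where 1.65% of all loci were all above and 0.443% all below. In E2 against vehicle, 5 members had the higher and 2 the lower mean, the lowest exact p was 0.3, and 0 members were separated (background 0.169% above and 3.19% below). Fulvestrant against vehicle gave 2 higher and 6 lower means, a lowest exact p of 0.3 and 0 separated members (0.164% and 4.53%). E2 plus fulvestrant against vehicle gave 4 higher and 5 lower, again with a lowest exact p of 0.3 and 0 separated (0.151% and 5.55%). Lower means than with vehicle were found at 75.3%, 79.3% and 80.5% of all loci in these 3 contrasts. Per 10000 peaks of the list the members turned, with 8, 7 and 8 of 9 higher than with vehicle (42.5%, 48.2% and 48.4% of all loci), and the member sums of the fulvestrant and the E2 plus fulvestrant contrasts turned from −0.38 each to 0.42 and 0.43 (log2). The 3 contrasts against vehicle share the vehicle libraries, including the longest list. All adjusted p-values of these 4 contrasts were 1, and 3 libraries against 3 could not reach an exact p under 0.1.

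The interaction of E2 and fulvestrant, which asks whether the E2 difference depends on fulvestrant, had a lowest member p of 0.266 by exact permutation of the 12 libraries. Adjusted p of 0.05 or less was reached at 0% of loci (0 of 21911), with 255 loci at an unadjusted exact p of 0.05 or less. The libraries also differed by replicate number. The 4 libraries numbered 1 held 25.5 ± 6.2 summed member peaks (19 to 34), and the 8 numbered 2 or 3 held 14 ± 7.0 (8 to 30). At q of 0.05 or less these means were 9.5 and 1.38. *Ckm* had 6.5 ± 2.4 peaks in libraries numbered 1 and 1.75 ± 1.2 in the others (exact permutation p = 0.00404, adjusted over all loci 0.124). Here too 0% of loci passed the adjusted limit, with 4877 at an unadjusted exact p of 0.05 or less. Libraries numbered 1 had longer lists than all the others except vehicle replicate 2. Per 10000 peaks of the list *Ckm* had 0.918 ± 0.394 peaks in libraries numbered 1 and 0.420 ± 0.294 in the others (exact p = 0.0404, adjusted 0.775), and 1326 loci had p of 0.05 or less. On that scale 6 of 9 members were lower in libraries numbered 1 and 3 were higher. The share of all loci going each way was not computed, and the lower members include *Myf5* and *Myf6*, whose windows overlap. The log2 ratio of the member sums fell from 0.87 to 0.16 per 10000 peaks, where the 3 contrasts against vehicle stood at 0.56, 0.42 and 0.43. The part of library quality in this difference was not tested.

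The strongest peaks in the member windows were mostly promoters of neighbouring genes. The windows held 214 peaks in the 12 lists. Of these 29 lay within 3000 bp of a member's start (10 of them also near another gene), 44 near a start of another gene alone, and 141 farther from every start. Among the 49 peaks with q of 0.05 or less these numbers were 4, 23 and 22. The 15 peaks at or above 5 in −log10 q split into 0, 14 and 1. All 14 lay near starts of *Dnpep*, *Ppp1r13l* or *Ercc2*, and a region counted once for each library that called it. Libraries numbered 1 held 38 of the 49. The same shares over all peaks of the genome were not computed, so these splits are not set against a background. Merging overlapping peaks gave 160 regions, of which 128 (80%) were called in 1 library, against 77.8% of 434675 regions genome-wide.

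**Figure D3:**
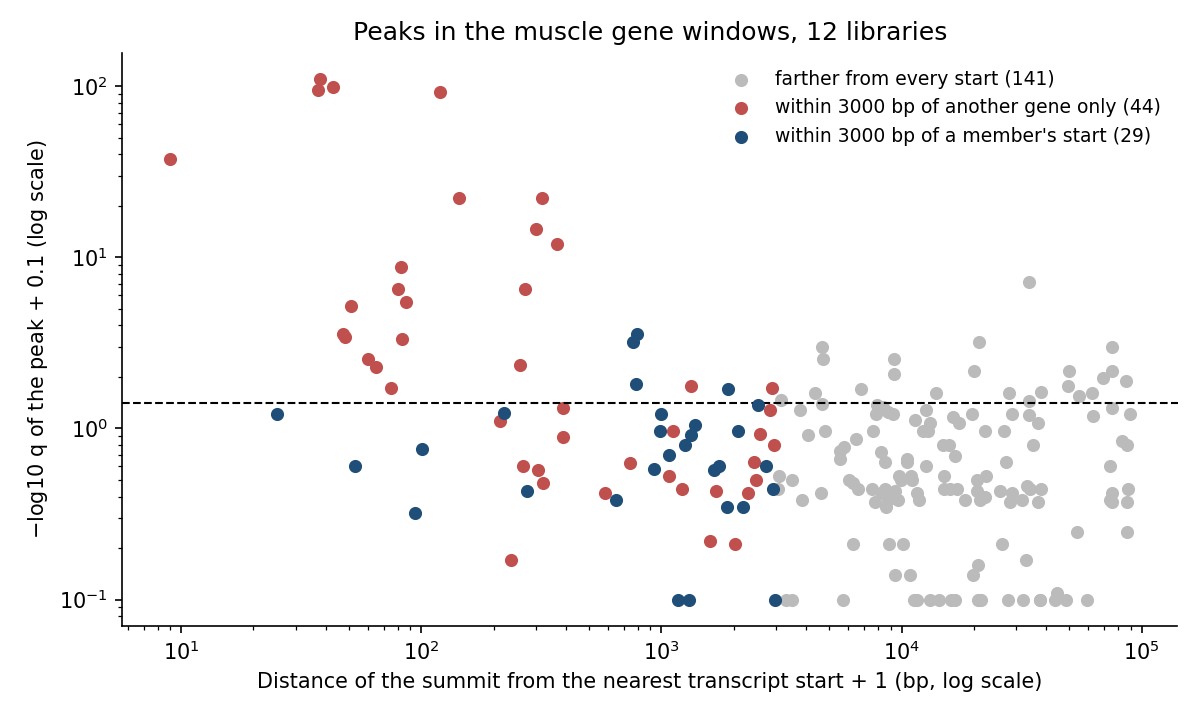
Peaks of the 12 lists in the member windows, by distance of the summit from the nearest transcript start of any gene (x axis, bp plus 1, log scale) and −log10 q (y axis, plus 0.1, log scale); the dashed line is q of 0.05. The 29 peaks near a member's start (blue) reach a −log10 q of 3.48 at most, and 14 of the 15 peaks at 5 or above are near a start of another gene alone (red).

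Of these regions 2 (1.25%, against 2.54% genome-wide) were called in at least 6 libraries, and both were promoters of other genes. The first, chr1:75317260-75318172, lies at −42.6 kb from the start of *Des* with its summit 37 bp from a start of *Dnpep*, an aspartyl aminopeptidase gene. It was called in 8 libraries, all at q of 0.05 or less, and reached 143 tags, a fold enrichment of 14.09 and −log10 q of 109.81 in fulvestrant replicate 1. The second, chr7:19359628-19360734, lies at −44.4 kb from *Ckm*, 317 bp from a start of *Ppp1r13l*, a regulator of p53, and was called in 6 libraries (36 tags and −log10 q of 21.96 in vehicle replicate 3). A promoter of *Ercc2*, a DNA repair helicase gene, at −22.8 kb from *Ckm*, was called in 4 libraries with −log10 q of up to 8.68. No peak at a member's own promoter passed 10 tags.

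Weaker regions are shown next, as 200 bases around the strongest summit, on the strand of the member gene. They were chosen after their values were seen, as regions free of exons with q of 0.05 or less in at least 2 libraries, plus the *Myog* region called in 3. The *Ckm* region also lies within 3000 bp of a *Klc3* start, and the *Myog*, *Acta1* and *Pax7* regions lie farther from every start. The *Ppp1r13l* promoter is shown for contrast. The bases were read from the genome (GRCm38.p6), no base shown is in an annotated exon, and capitals again mark CANNTG.
*Ckm* +0.8 kb (chr7:19405465-19405664, plus strand): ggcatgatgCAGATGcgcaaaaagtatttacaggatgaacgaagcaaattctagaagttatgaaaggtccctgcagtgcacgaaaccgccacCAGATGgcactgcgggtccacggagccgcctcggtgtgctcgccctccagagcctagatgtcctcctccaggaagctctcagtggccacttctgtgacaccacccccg
*Ppp1r13l* promoter, *Ckm* −44.4 kb (chr7:19360229-19360428, plus strand): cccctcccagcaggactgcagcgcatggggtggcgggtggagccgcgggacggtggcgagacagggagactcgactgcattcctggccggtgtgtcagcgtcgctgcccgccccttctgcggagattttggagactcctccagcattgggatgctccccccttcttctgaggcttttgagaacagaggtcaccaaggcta
*Myog* −29.9 kb (chr1:134259966-134260165, plus strand): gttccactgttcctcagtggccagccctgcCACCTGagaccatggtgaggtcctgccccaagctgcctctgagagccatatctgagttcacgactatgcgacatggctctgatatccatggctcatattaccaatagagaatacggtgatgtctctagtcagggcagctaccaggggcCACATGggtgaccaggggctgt
*Acta1* −30.2 kb (chr8:123924802-123925001, minus strand): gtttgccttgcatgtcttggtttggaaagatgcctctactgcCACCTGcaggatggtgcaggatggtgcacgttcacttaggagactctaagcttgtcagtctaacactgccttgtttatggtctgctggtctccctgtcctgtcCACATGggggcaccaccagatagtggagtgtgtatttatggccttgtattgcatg
*Pax7* +76.0 kb (chr4:139757407-139757606, minus strand): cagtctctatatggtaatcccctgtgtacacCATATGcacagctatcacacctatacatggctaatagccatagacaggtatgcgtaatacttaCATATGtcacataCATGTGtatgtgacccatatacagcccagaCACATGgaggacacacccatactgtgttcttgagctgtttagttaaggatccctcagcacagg
*Pax7* −34.1 kb (chr4:139867488-139867687, minus strand): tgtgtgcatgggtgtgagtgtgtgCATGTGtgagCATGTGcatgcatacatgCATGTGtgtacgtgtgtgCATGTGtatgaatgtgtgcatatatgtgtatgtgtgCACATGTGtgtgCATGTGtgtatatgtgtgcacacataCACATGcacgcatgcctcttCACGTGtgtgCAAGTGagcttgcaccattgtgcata
The *Ppp1r13l* sequence held 12 CpG and 0 E-boxes, and the *Ckm*, *Myog* and *Acta1* regions held 2 E-boxes each. Over all 656091 windows of this length around summits on assembled chromosomes, 68.1% held at least 1 E-box.

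The *Ckm* +0.8 kb region, in an intron of the early transcript, was called in E2 replicate 1 and fulvestrant replicate 1, with no call in any vehicle library. The *Acta1* region at −30.2 kb was called in the same 2 libraries (9 tags and −log10 q of up to 2.43). The *Myog* region was called in vehicle, E2 and E2 plus fulvestrant replicate 1, once with q of 0.05 or less (3.09, E2 replicate 1). These 3 regions were thus seen in libraries numbered 1 alone, and none was called in all 4 of those.

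The *Pax7* regions were called mostly in other libraries. The region 76.0 kb into the gene, in an intron, was called in 5 libraries (vehicle replicate 2, E2 replicates 1, 2 and 3, and fulvestrant replicate 2), with −log10 q of up to 2.91 on 9 tags. It was the region called in most libraries that was not a promoter of another gene. It was thus listed in 3 of 3 libraries given E2 and 0 of 3 given E2 with fulvestrant. Its strongest peak, however, was in vehicle replicate 2, a library without E2. The region was chosen after its values were seen, and the share of regions genome-wide with such a split was not computed. The split can therefore neither show nor deny a difference between treatments. The region at −34.1 kb was called in vehicle replicate 2, E2 replicate 3 and E2 plus fulvestrant replicate 2, all among the 7 libraries with few promoters at q of 0.05 or less. Its peak in E2 replicate 3 (13 tags, fold enrichment 7.07, −log10 q of 7.11) was the 1 distal peak in the windows above −log10 q of 5. Of its 200 bases 80.5% are repeat-masked in the assembly and many of them read as alternating T and G. The window held 10 E-boxes. At 27.1% of all summits more than 50% of such a window was masked. Whether alignment within repeats bears on this peak was not tested.

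Lists of other muscle and stromal genes gave the members a setting. The lists were chosen with earlier results of these data known. The measure was a promoter call at q of 0.05 or less in at least 3 of the 5 sharper libraries, which 44.1% of all genes met. It was met by 0 of 9 members, 0 of 6 satellite cell surface and fusion genes, 1 of 9 genes of excitation, calcium handling and muscle metabolism, and 4 of 19 sarcomere genes. In the fibroblast list 8 of 12 genes met it, and in a list of myogenic regulators beyond the members 6 of 10 did. The remaining lists gave 1 of 6 pericyte and smooth muscle genes, 0 of 4 endothelial, 0 of 4 leukocyte, 1 of 3 Schwann and 1 of 3 adipocyte genes.

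**Figure D4:**
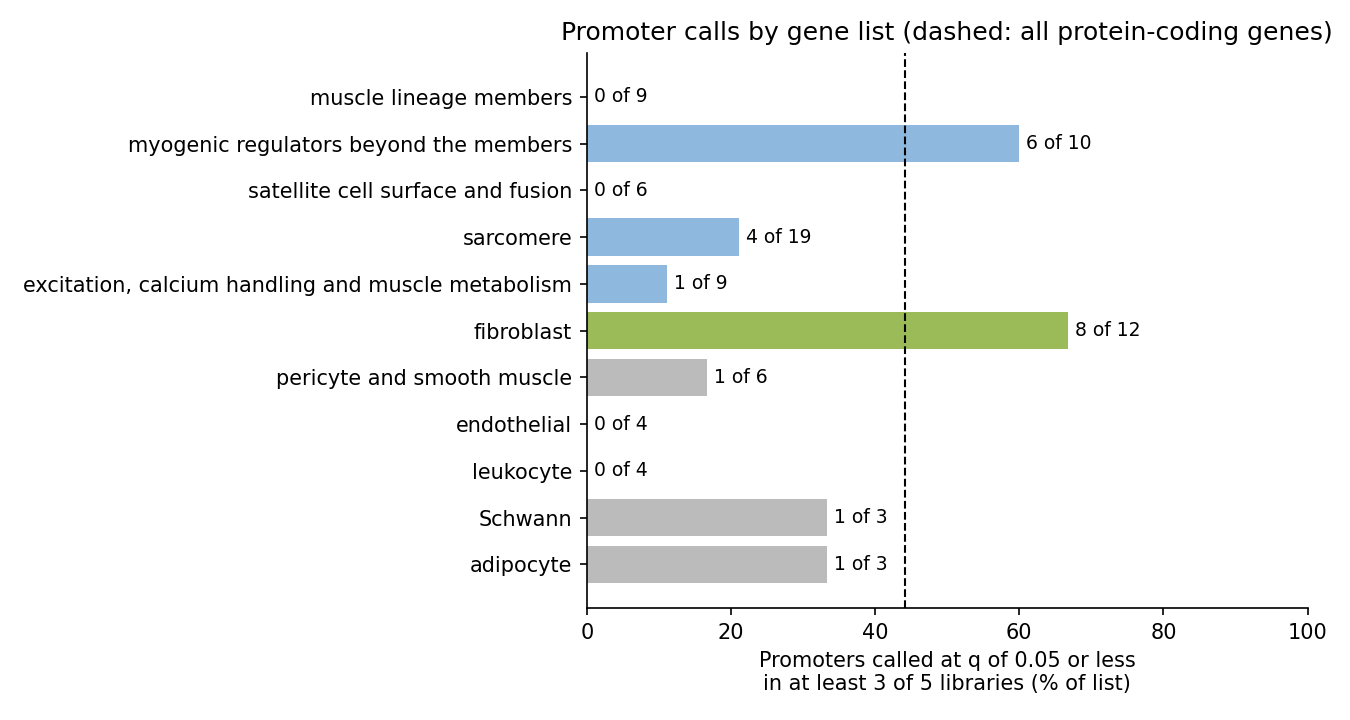
Share of each gene list (y axis) whose promoter was called at q of 0.05 or less in at least 3 of the 5 libraries with over 30% of promoters so called (x axis, percent of the list); bars carry the counts (muscle lists in light blue, fibroblast in green, other cell types in grey) and the dashed line is the 44.1% of all protein-coding genes. The 9 members stand at 0, the sarcomere genes at 4 of 19 and the fibroblast genes at 8 of 12.

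*Vim*, encoding the mesenchymal filament protein vimentin, was called in 10 of 12 libraries with a median fold enrichment of 5.91 and −log10 q of up to 33.28. The collagen I genes *Col1a2* and *Col1a1* were called in 9 each, with medians of 5.68 and 3.53. *Pdgfra*, the receptor that marks fibroblasts of muscle, was called in 7 libraries with a median of 3.45, and at q of 0.05 or less in all 5 of the sharper ones. *Pdgfrb* and *Thy1* were called in 6 libraries each. The highest fold enrichment at a member promoter was 4.55 (*Ckm*), below the highest of *Vim* (11.11) and *Col1a2* (11.19) and above those of *Col1a1* (4.44) and *Pdgfra* (4.08). That *Ckm* peak also lies within 3000 bp of a *Klc3* start. Its −log10 q of 3.48 was below the highest of *Col1a1* (5.47) and of *Pdgfra* (3.76).

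Among the myogenic regulators, *Eya2* was called in 10 libraries and *Mef2d* in 7, with median fold enrichments of 3.48 and 5.50. Eya and Mef2 genes act upstream of or beside the myogenic factors and are also used in other tissues. Among sarcomere genes, the troponin genes *Tnni1* and *Tnnt3* were called in 10 libraries and *Tnnt1* in 9, with medians of 3.53, 3.27 and 3.33. *Mylpf*, a fast myosin light chain gene, was called in 8 with a median of 12.67 and −log10 q of up to 81.33, and *Actn3*, encoding fast-fibre alpha-actinin, in 7 with a median of 6.15. A start of *Tbc1d10b* lies 422 bp from a start of *Mylpf*, and a start of *Zdhhc24* 759 bp from one of *Actn3*, so these 2 promoter calls cannot be told apart from those of their neighbours. *Neb*, the nebulin gene, was called in 7 with a median of 3.19. In the metabolic list *Pygm*, *Cacna1s*, *Ryr1* and *Casq1* were called in 7 each and *Mb* in 6, with medians of 3.15 to 3.47. *Cdh15* and *Itga7*, surface genes of myogenic cells, were called in 6 each. A start of another gene also lies within 3000 bp of one of *Tnnt3*, *Neb*, *Pygm*, *Cacna1s*, *Ryr1*, *Casq1* and *Mb*. The same holds for *Pdgfra*, *Col1a2* and *Thy1* of the fibroblast list, so these calls may be shared with neighbours too. In the adipocyte list *Plin1* was called in 10 libraries, *Fabp4* in 1 and *Adipoq* in 0. In the pericyte and smooth muscle list *Cnn1* was called in 6, and the other genes in 1 (*Rgs5*) to 5 (*Myh11*).

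CpG content set the members' backgrounds apart. *Pax7*, *Pax3* and *Des* have CpG-rich promoters, and 1 of these 3 was called in at least 6 libraries, against 68.7% of CpG-rich promoters. The other 6 members have promoters that are not CpG-rich, and 2 of them (*Ckm* and *Acta1*) were called in at least 6 libraries, against 26.4% of the 12188 others. Around their RefSeq starts, *Ckm* and *Des* were called in 2 libraries each. The CpG class of *Ckm* was read at its earlier GENCODE start. A region absent from a list had too few tags there and is not shown to be closed, and in bulk cultures a small share of open cells cannot be told apart from weak signal in all cells.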

How the data were processed

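ATAC-seq was analysed from 12 deposited peak lists, 1 per library, in which the authors had not pooled replicates. Per the methods, the authors trimmed reads with Trimmomatic (0.39, per the labels), aligned them to mm10 with Bowtie2, removed duplicates with Picard (2.21.4) and called peaks with MACS2, with reads shifted and extended to 200 bp as suits the transposase cut. Beside its position and summit, a deposited peak carries the authors' fold enrichment (the ratio of tag pileup to local background, each with 1 added), its significance as −log10 p-value and −log10 q-value, and a score derived from the p-value. The smallest deposited −log10 p-value was 2.01, so the lists hold weak peaks. Read counts and blacklisted regions were not used here.

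Tag pileups at summits were recovered from fold enrichment and −log10 p-value, and came out whole (tolerance 0.002) for 99.95% to 99.99% of peaks with −log10 p under 15. The commonest background was 0.713 to 1.419 tags per library, which gives relative depth only and sets the smallest pileup that can be listed.

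Summits were assigned to gene windows and promoters of GENCODE M21 with Python 3.11, numpy 2.4.6 and pandas 2.3.3. Peaks per window were compared by exact two-sided permutation with Benjamini-Hochberg adjustment over 21911 protein-coding genes, all without a replicate block. Over the loci, deviations of same-numbered libraries from their group means had correlations of −0.05 to 0.22, so the numbers were not taken to pair libraries. Libraries numbered 1 nevertheless stood apart from the others, and the methods name a removal of batch effects for the ATAC-seq data. By exact permutation within replicate numbers, the lowest member p was 0.25 to 0.5 in the 4 contrasts of treatments. No p under 0.25 is possible there. CpG-rich promoters had an observed over expected CpG of at least 0.6 and at least 50% GC within 500 bp of the start. Code was tested on simulated data.

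All 9 members are named. Merged regions are named when called in at least 6 libraries, and genes of other lists when their promoter is called in at least 6 (at most 6 per list); some genes that this rule names are not reported here. Members and lists were chosen with earlier results of these data known. Alternatives were q of 0.05 or less, −log10 q of at least 5, equal list lengths (30062 peaks), any overlap in place of the summit, 10000 or 100000 bp upstream, promoters within 1000 bp or around the start of the gene record, counts per 10000 peaks, a replicate block, replicate numbers 1 or 2 and 3 alone, and leaving out each library. RefSeq starts and the 5 libraries with over 30% of promoters at q of 0.05 or less were added after seeing the data.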

Additional observations from a re-analysis of the deposited data

Results flagged for a closer look

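A check for a value far from the rest covered 20 groups of libraries. The groups were libraries numbered 1, and libraries numbered 2 or 3, for the member sum and each gene. Such a value was found in 3 groups. The limits used are made for continuous values, and these are small counts with ties, so no chance rate is given. Vehicle replicate 2, the longest list, had 30 summed member peaks, while the other 7 libraries numbered 2 or 3 had 8 to 17. E2 plus fulvestrant replicate 1 had 2 peaks in the *Myf5* window and 2 in the *Myf6* window, where the other 3 libraries numbered 1 had 0. These are the same 2 peaks, since the windows overlap.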

How the results depend on the processing

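The sums over the member windows changed direction with the setting in all 3 contrasts against vehicle and in the interaction. E2 against E2 plus fulvestrant changed direction without E2 replicate 1 alone, and the number contrast in no setting. As log2 ratios of means, the values reported were 0.43 for E2 against E2 plus fulvestrant, 0.05 for E2 against vehicle, −0.38 for fulvestrant and for E2 plus fulvestrant against vehicle, 0.05 for the interaction and 0.87 for replicate number 1 against 2 and 3. In the same order from E2 against vehicle on, peaks with q of 0.05 or less gave 1.00, 0.81, 0.46, 1.35 and 2.79, and equal list lengths gave 1.08, 0.87, 0.83, 1.12 and 0.19. With −log10 q of at least 5, fulvestrant against vehicle was 0.42, the interaction 1.15 and the number contrast 2.46. For E2 against vehicle and the interaction, 10000 bp upstream gave −0.37 and −0.51, 100000 bp −0.30 and −0.11, and replicate numbers 2 and 3 alone −0.55 and −0.62. Per 10000 peaks, fulvestrant against vehicle was 0.42, E2 plus fulvestrant against vehicle 0.43 and the number contrast 0.16. Replicate number 1 alone gave 0.84, 0.40, 0.34 and 0.90 for the 3 contrasts against vehicle and the interaction. With a replicate block the interaction was −0.04, and the other 4 contrasts (0.38, 0.01, −0.42 and −0.37) kept their direction; the labels give no shared source for equal numbers. Lower and upper values on leaving out 1 library were −0.13 and 0.91 (E2 against E2 plus fulvestrant), −0.51 and 0.46 (E2 against vehicle), −0.93 and 0.03 (fulvestrant), −0.86 and 0.03 (E2 plus fulvestrant), −0.51 and 0.53 (interaction), 0.70 and 1.12 (number) and 22 and 27 promoter calls. Without vehicle replicate 2 the last 2 contrasts against vehicle were 0.03, and without E2 replicate 1 E2 against E2 plus fulvestrant was −0.13 and E2 against vehicle −0.51. Any overlap changed no direction.

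The 27 member promoter calls became 4 with q of 0.05 or less, 0 with −log10 q of at least 5, 14 with equal list lengths and 10 within 1000 bp of a start. They became 17 with RefSeq starts for the 6 members of its table and GENCODE starts for the other 3, and 15 in the 5 sharper libraries. Fewer peaks or libraries enter each of these counts by construction. Lists called separately in libraries of unequal depth limit every comparison, and the member promoter peaks rest on 4 to 10 tags each.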
